A study of Rattus norvegicus with 8 samples.

Results

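The genes described here are 9 that resting, homeostatic astrocytes are known for: Aqp4, Mlc1, Slc1a2, Slc1a3, Aldh1l1, Acsbg1, Ndrg2, Sox9 and Apoe. They were named for their known roles, and each was read from array features that the platform annotation gives exactly 1 gene symbol. By that rule 8 of the 9 were measured, each by 1 feature, among 14506 genes in all. No feature carried Sox9, a transcription factor of glial fate, as its only symbol, and that gene was not analysed here.

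Astrocytes clear glutamate from synapses, take up potassium and water, and supply lipids and metabolites to neurons and oligodendrocytes. The transcripts of these tasks are high in mature, unstimulated astrocytes of the spinal cord, and they are often followed beside the reactive genes that astrocytes turn on after injury. FGF9 is a secreted ligand of FGF receptors, which astrocytes carry, and FGF receptor signalling through ERK is known to act on glial growth and differentiation.

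The cultures came from spinal cords of Sprague-Dawley rat embryos and contain axons, myelinating oligodendrocytes and astrocytes. Control cultures received no factor, and treated cultures received human FGF9 protein at 100 ng/ml. RNA was taken after 24 h or after 10 days, which gives 4 groups of 2 arrays. One label field names the samples as astrocytes grown from neurospheres, while the titles and the cell type field name myelinating cultures. Neuronal Snap25 stood between 11.76 and 13.78 on the 8 arrays and myelin Mbp between 10.78 and 12.67, so the arrays hold neuronal and oligodendrocyte RNA. In such mixed RNA, fewer astrocytes and less transcript in each astrocyte cannot be told apart. Whether replicates were separate cultures is not given in the sources used here, so p-values measure only the spread between these arrays.

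All values are on a log2 scale, on which array medians lay between 6.62 and 6.73 and the 5th percentiles between 4.79 and 4.89. A control array and an FGF9 array of the same replicate number share the prefix of the array name and are called a pair. At 24 h pair 1 carries the prefix CL1 and pair 2 carries CL2; at 10 days pair 1 carries CL2 again and pair 2 carries AA1. The meaning of this prefix was not stated in any label. The AA1 arrays stood apart, with correlations of 0.897 to 0.939 to the 6 other arrays, which correlated with each other at 0.962 to 0.989. On the AA1 arrays the fibroblast collagen Col3a1 was at 5.36 and 5.69, against 10.05 to 11.29 elsewhere. The members' FGF9 effects are therefore given within each pair, and the AA1 pair is always the second at 10 days.

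The promoters of 4 members are printed as examples of genes, all lower with FGF9 at 24 h, that went different ways at 10 days. Slc1a3, Mlc1 and Acsbg1 were then higher than control in both pairs, and Ndrg2 was lower in both. Of the members not printed, Slc1a2 was also higher in both, and Aqp4 and Apoe were also lower in both. The windows of Slc1a2 and Aqp4 held neither motif marked below. Each run is the 250 bases before the most upstream start that the RefSeq promoter table lists, 5′ to 3′ on the gene's strand, in build GRCr8. Only the Slc1a3 window lies wholly outside the annotated gene. The Ndrg2 and Mlc1 windows lie inside the annotated span, whose upstream ends are at 27087376 and 121949484. The Acsbg1 window overlaps its gene, which ends at 63943486. Capitals mark a short core of the nuclear factor I site (TTGGC or its complement GCCAA) and the SOX motif ACAAAG; nuclear factor I and SOX proteins are factors of astrocyte development.
Slc1a3, chr2:59557809-59558058, minus strand: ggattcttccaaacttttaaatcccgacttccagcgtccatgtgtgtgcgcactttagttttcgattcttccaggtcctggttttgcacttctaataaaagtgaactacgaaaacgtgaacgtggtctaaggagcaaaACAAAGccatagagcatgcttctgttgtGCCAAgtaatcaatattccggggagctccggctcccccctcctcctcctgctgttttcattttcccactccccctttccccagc
Mlc1, chr7:121946699-121946948, minus strand: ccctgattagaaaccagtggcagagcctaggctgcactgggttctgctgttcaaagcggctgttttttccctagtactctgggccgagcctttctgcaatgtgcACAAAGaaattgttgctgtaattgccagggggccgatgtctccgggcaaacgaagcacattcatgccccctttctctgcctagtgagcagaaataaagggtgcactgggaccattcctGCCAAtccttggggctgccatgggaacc
Acsbg1, chr8:63943279-63943528, minus strand: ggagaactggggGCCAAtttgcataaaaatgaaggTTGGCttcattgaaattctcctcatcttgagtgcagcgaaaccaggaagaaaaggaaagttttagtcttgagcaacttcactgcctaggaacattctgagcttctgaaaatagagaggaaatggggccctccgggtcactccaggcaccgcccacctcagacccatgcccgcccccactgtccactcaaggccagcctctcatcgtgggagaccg
Ndrg2, chr15:27083121-27083370, minus strand: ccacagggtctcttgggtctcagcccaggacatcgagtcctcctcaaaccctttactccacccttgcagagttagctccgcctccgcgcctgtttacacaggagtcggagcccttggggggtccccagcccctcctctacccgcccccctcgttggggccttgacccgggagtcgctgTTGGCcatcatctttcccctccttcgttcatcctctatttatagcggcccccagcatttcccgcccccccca
TTGGC was found in 5 of the 8 measured members' windows, these 4 and Apoe, and in 40.3% of all 33469 promoter windows of that length. ACAAAG was found in Slc1a3 and Mlc1, and in 16.3% of all windows. The other SOX motifs searched on both strands, ACAATG and GAACAAT, were in none of the 8 (11.1% and 2.31% of all windows), and Acsbg1 alone held a STAT motif (TTCNNNGAA), which 7.67% of windows hold. The E box CANNTG was in the windows of Aqp4, Slc1a2, Slc1a3 and Apoe and in 65.5% of all. No 2 matches overlapped, and all are letter matches, not binding sites.

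After 24 h of FGF9 all 8 measured genes were lower than control in both pairs, a pattern that 32.9% of all genes showed. The members' median difference was -0.52 log2 units, with -0.40 in pair 1 and -0.65 in pair 2, beside a median of 0.00 over all genes. For 7 of the 8, all but Slc1a3, both FGF9 arrays lay below both controls, against 14.5% of all genes.

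**Figure D1:**
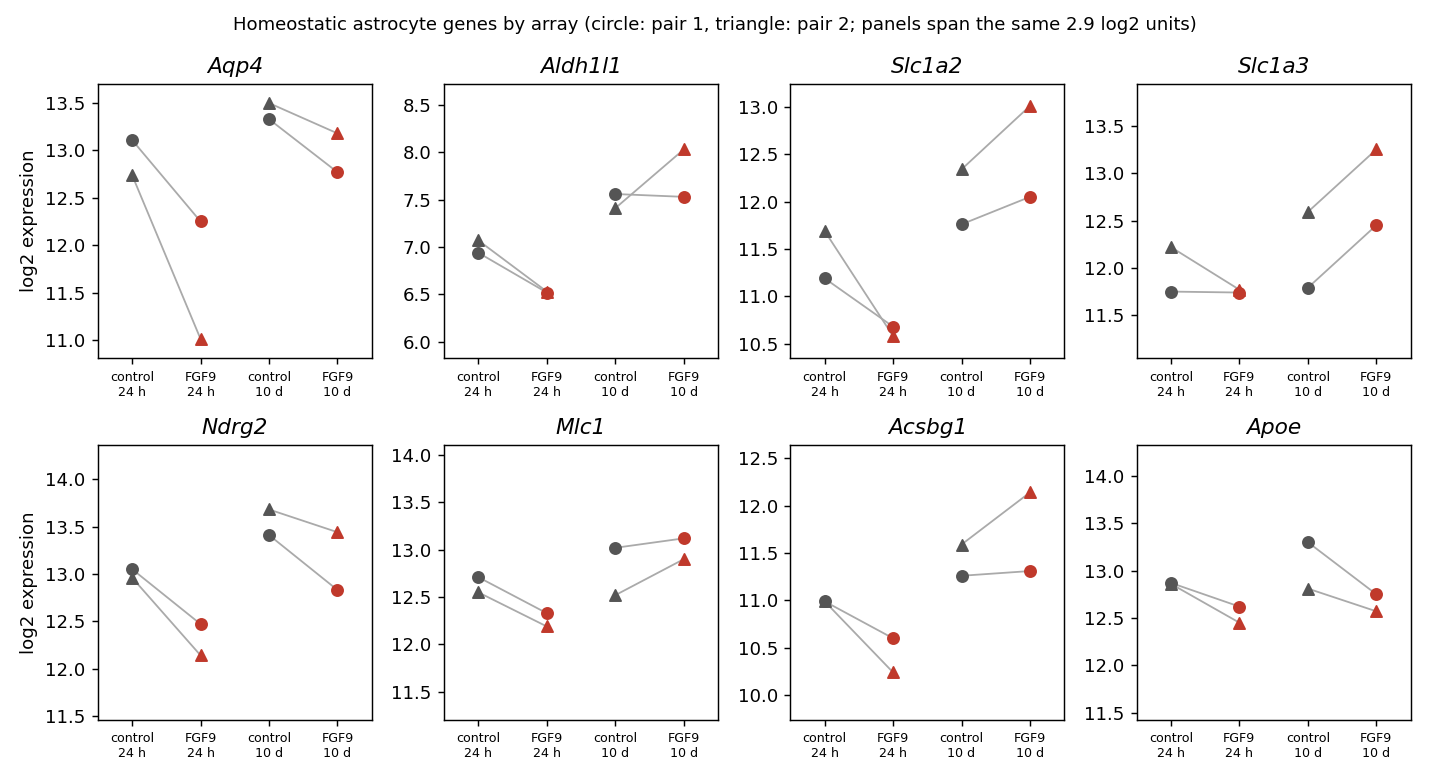
The level of each measured gene on each array in log2 units, with controls in grey, FGF9 in red and a line joining the arrays of a pair. At 24 h every line slopes down. At 10 days Aqp4, Ndrg2 and Apoe still slope down, while Slc1a2, Slc1a3, Mlc1 and Acsbg1 slope up.

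Among the genes of water and ion balance, Aqp4 encodes the water channel of astrocyte endfeet. It stood at 13.11 and 12.74 in the 24 h controls and at 12.25 and 11.01 with FGF9. The groups did not overlap, and the FGF9 array of pair 2 was the lowest of all 8. The difference was -1.30 ± 0.42 log2 units (SE, n = 2 per group), or 2.46-fold, with -0.87 and -1.73 in the pairs. It was -0.68 without the FGF9 array of pair 2 and -1.91 without that of pair 1. Mlc1, a membrane protein of astrocyte junctions that takes part in volume regulation, stood at 12.71 and 12.55 in controls and at 12.33 and 12.19 with FGF9. Its difference was smaller, -0.37 ± 0.23, and nearly the same in both pairs (-0.38 and -0.36).

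Of the glutamate transporters, Slc1a2 (GLT-1) stood at 11.19 and 11.69 in the 24 h controls and at 10.68 and 10.58 with FGF9. Both FGF9 arrays were the lowest of the 8 for this gene, with a difference of -0.81 ± 0.38 (-0.51 and -1.11 in the pairs). Slc1a3 (GLAST), the transporter that is also found in radial glia and progenitors, stood at 11.75 and 12.22 in controls and at 11.74 and 11.77 with FGF9. Its groups overlapped: pair 1 differed by only -0.01 and pair 2 by -0.45, and the lower mean of -0.23 ± 0.38 rests on pair 2.

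The metabolic genes were also lower. Aldh1l1, a folate enzyme widely used as an astrocyte marker, stood at 6.94 and 7.07 in controls and at 6.52 and 6.53 with FGF9. It is the dimmest member, close to the array medians, where array differences can be understated; its difference was -0.48 ± 0.22 (-0.42 and -0.54). Acsbg1, an acyl-CoA synthetase of brain lipid metabolism, was at 10.99 in both controls and at 10.60 and 10.24 with FGF9, a difference of -0.57 ± 0.32 (-0.38 and -0.75). Ndrg2, an astrocyte protein linked to restraint of growth, stood at 13.05 and 12.96 in controls and at 12.47 and 12.14 with FGF9, a difference of -0.70 ± 0.27 (-0.58 and -0.82). Apoe, the main lipoprotein carrier that astrocytes secrete and that microglia also make, stood at 12.87 and 12.86 in controls and at 12.62 and 12.45 with FGF9. Its difference of -0.33 ± 0.22 (-0.25 and -0.41) was one of the smallest.

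A gene passed where its limma p, adjusted across all 14506 genes, was under 0.05. None of the 8 passed at 24 h (adjusted p = 1 for each). Over all genes 0% passed, while 280 genes (1.93%) had an unadjusted p under 0.05, 2 of the 8 members among them. With the pair as a block the SE of Aqp4 was 0.22, that of Slc1a2 0.19 and that of Ndrg2 0.15, and again 0% of genes passed. In that fit 1800 genes (12.4%) had an unadjusted p under 0.05, 6 of the 8 members among them. The members' block adjusted p ran from 0.141 (Aqp4) to 0.611 (Slc1a3). Without either 10-day pair the block fit passed 237 genes, again with no member (Aqp4 adjusted p = 0.0508). The common direction at 24 h is therefore a description of 2 pairs.

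After 10 days of FGF9 the members no longer went one way. Slc1a2, Slc1a3, Mlc1 and Acsbg1 were higher than control in both pairs, Aqp4, Ndrg2 and Apoe were lower in both, and Aldh1l1 was split. Over all genes 33.2% were higher in both pairs and 30.0% lower in both. The members' median was 0.27 (0.01 in pair 1 and 0.47 in the AA1 pair), beside 0.02 over all genes.

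Slc1a3 had the largest difference upward at 10 days. It stood at 11.79 and 12.59 in controls and at 12.45 and 13.25 with FGF9, so that it was higher by 0.66 in each pair, or 1.58-fold. The groups overlapped all the same, because the AA1 array exceeded its CL2 counterpart by 0.79 in the controls and by 0.79 with FGF9, more than the FGF9 difference itself. The SE was 0.38 without the block and 0.16 with it. Slc1a2 stood at 11.76 and 12.34 in controls and at 12.05 and 13.01 with FGF9, a difference of 0.48 ± 0.38 (0.29 and 0.67 in the pairs). In the fit without the block that difference came to 0 without the FGF9 array of the AA1 pair, and ran up to 0.96 with another array left out. Such fits mix levels between pairs, as the AA1 control exceeded the CL2 control by 0.58. Within pair 1 alone the difference was 0.29.

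For Mlc1, control values of 13.02 and 12.52 stood beside 13.12 and 12.90 with FGF9 (0.24 ± 0.23; 0.10 and 0.38 in the pairs). Acsbg1 was at 11.26 and 11.59 in controls and at 11.31 and 12.14 with FGF9 (0.30 ± 0.32), a difference carried by the AA1 pair (0.05 and 0.55). Aldh1l1 was at 7.56 and 7.41 in controls and at 7.53 and 8.03 with FGF9; the pairs differed by -0.03 and 0.62, so that its mean of 0.30 ± 0.22 rests on the AA1 pair alone.

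Aqp4 remained below control at 10 days, at 12.77 and 13.18 against 13.33 and 13.50. The groups did not overlap (as in this direction for 11.3% of all genes), and the difference of -0.44 ± 0.42 was -0.56 and -0.32 in the pairs. Apoe was likewise lower without overlap, at 12.75 and 12.57 against 13.30 and 12.81, a difference of -0.40 ± 0.22 (-0.55 and -0.25). Ndrg2 was lower within each pair, at 12.83 and 13.44 against 13.41 and 13.68 (-0.41 ± 0.27; -0.58 and -0.24), though its groups overlapped across pairs. These 3 genes were lower with FGF9 in all 4 pairs of the study, as were 14.1% of all genes.

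None of the 8 passed in limma at 10 days (adjusted p = 1 for each; 0% of all genes passed, and 816 had an unadjusted p under 0.05). An unadjusted p under 0.05 was reached by 0 of the 8 members without the block (5.63% of all genes) and by 4 with it (24.0%). With the pair as a block 933 genes passed, 3.12% of all genes as higher and 3.31% as lower, and still 0 of the 8 members. That count was 469 without either 24 h pair, 1506 without pair 1 at 10 days and 569 without the AA1 pair, each with 0 members. In the last 2 fits 1 pair is left at 10 days, which is assumed to vary like the 24 h pairs. Slc1a3 came nearest (block adjusted p = 0.0643), followed by Apoe (0.174), Ndrg2 (0.181), Slc1a2 (0.204) and Aqp4 (0.302). On data simulated for the 10-day comparison the fit without the block called none (0 of 100) of the genes set to differ by 1 log2 unit, and the block fit called 23. At 2 log2 units these fits called 36 and 69 of 100.

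**Figure D2:**
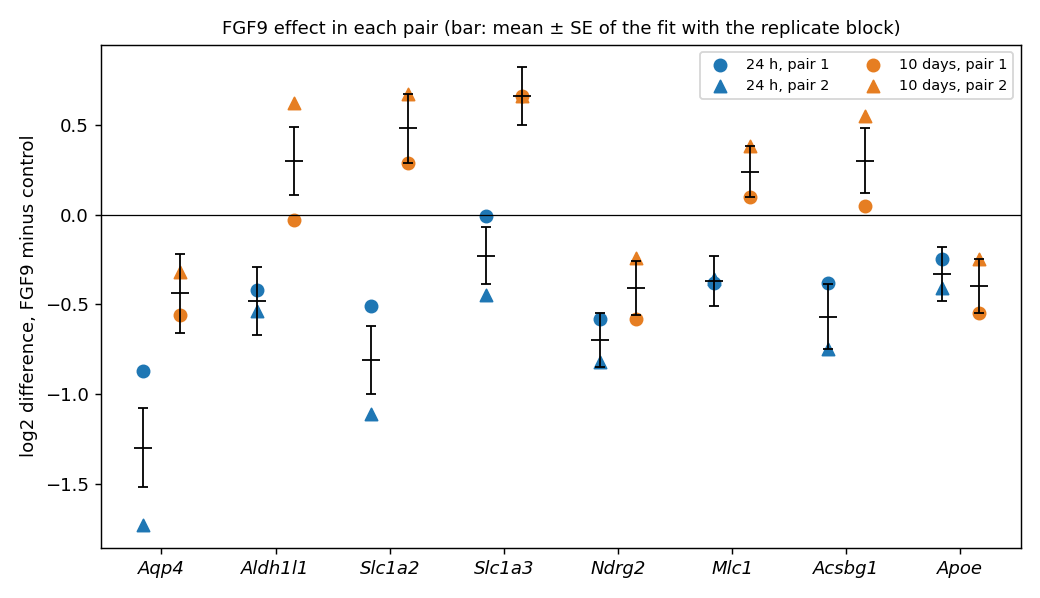
The FGF9 minus control difference in log2 units for each gene, in blue at 24 h and in orange at 10 days, with circles for pair 1, triangles for pair 2 and black bars for the mean ± SE of the fit with the pair as a block. All blue points lie below 0 (Slc1a3 pair 1 at -0.01), and the orange points lie on both sides.

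The effects at the 2 times were compared directly as the difference of differences. It was positive for 7 of the 8, meaning that the FGF9 effect was less negative or more positive at 10 days, as for 50.3% of all genes, and the members' median was 0.81. Slc1a2 shifted most, by 1.29 ± 0.54, followed by Slc1a3 (0.89 ± 0.54), Acsbg1 (0.87 ± 0.45), Aqp4 (0.85 ± 0.59) and Aldh1l1 (0.77 ± 0.31). Mlc1 shifted by 0.61 ± 0.32 and Ndrg2 by 0.29 ± 0.38, while Apoe, at -0.07 ± 0.31, had nearly the same difference from control at both times. No member passed in limma (adjusted p = 1 for each; 0% of all genes, 276 at an unadjusted p under 0.05), nor with the block (adjusted p from 0.237 for Slc1a2 to 0.93 for Apoe; 0.0483% of all genes passed, as higher). An unadjusted p under 0.05 was reached by 1 of the 8 without the block (1.90% of all genes) and by 6 with it (12.9%). Slc1a2, Slc1a3, Mlc1 and Acsbg1, or 4 of the 8, were lower in both pairs at 24 h and higher in both at 10 days, a pattern of 7.80% of all genes.

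In the control cultures all 8 members had higher means at 10 days than at 24 h, with a median difference of 0.46 beside 0.00 over all genes. Both 10-day controls lay above both 24 h controls for Aqp4, Aldh1l1, Slc1a2, Ndrg2 and Acsbg1, against 13.8% of all genes. The differences ran from 0.14 ± 0.23 (Mlc1) to 0.61 ± 0.38 (Slc1a2), and none passed (adjusted p = 0.983 for each; 0% of all genes, 415 at an unadjusted p under 0.05). Of the 8 members 0 had an unadjusted p under 0.05 there, against 2.86% of all genes. With the prefix as a block 1 of the 8 did (Aqp4, 0.74 ± 0.27), against 13.7% of all genes. The same control arrays enter the FGF9 comparisons, so these values are not independent of them.

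The array prefix differs between the times except in CL2, which holds pair 2 at 24 h and pair 1 at 10 days. Between these 2 controls Aqp4 was higher at 10 days by 0.59, Aldh1l1 by 0.49, Mlc1 by 0.46, Ndrg2 by 0.45, Apoe by 0.44 and Acsbg1 by 0.27. Slc1a2 differed by only 0.07 there, and Slc1a3 was lower at 10 days by 0.43 (-0.43). The higher means of both glutamate transporters in 10-day controls thus rest on the AA1 against CL1 arrays, where they differed by 1.15 and 0.84. With the prefix as a block Slc1a3 turned to -0.32 ± 0.19 and Slc1a2 shrank to 0.12 ± 0.24, and no member passed (0.00689% of all genes did, as lower). Between the FGF9 arrays of CL2 all 8 members were higher at 10 days, from 0.30 (Apoe) and 0.68 (Slc1a3) to 1.47 (Slc1a2) and 1.75 (Aqp4); these are single arrays with no test.

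**Figure D3:**
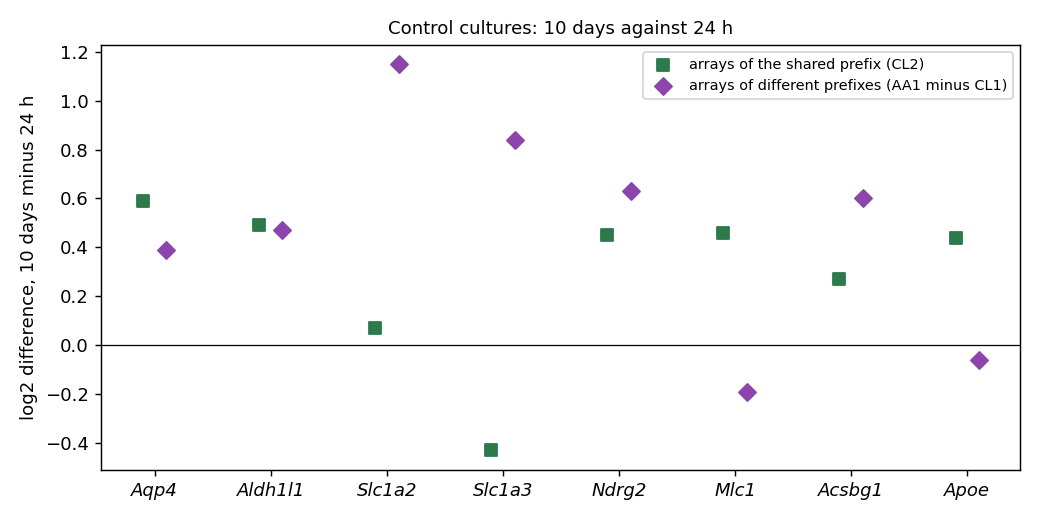
The 10-day minus 24 h difference in control cultures in log2 units, with squares for the controls of the shared prefix CL2 and diamonds for AA1 minus CL1. Aqp4, Aldh1l1, Ndrg2 and Acsbg1 are above 0 by both measures, whereas Slc1a3, Mlc1 and Apoe change sign between them.

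Across the 8 arrays the members did not form one profile. Slc1a2, Acsbg1 and Aldh1l1 ran most closely together (r = 0.97, 0.96 and 0.95 between them), followed by Aqp4 and Ndrg2 (r = 0.93) and by Slc1a2 and Slc1a3 (0.91). Apoe had r = 0.64 to Aqp4, 0.55 to Ndrg2 and 0.54 to Mlc1, and lower values of 0.32 to Aldh1l1, 0.21 to Acsbg1, 0.17 to Slc1a2 and -0.26 to Slc1a3. Slc1a3 likewise had only 0.4 to Mlc1 and 0.43 to Aqp4. Among 7912 other genes with an SD of at least 0.3, the closest to Ndrg2 were Acot2 (r = 0.992), Pax6 (0.979) and Zfp423 (0.978). The closest to Acsbg1 were Npr2 (0.991), S1pr1 (0.983) and Phyhd1 (0.981). Zfyve21 (0.98), Zkscan1 (0.979) and Cpne8 (0.977) were closest to Slc1a2, and Trafd1 (0.96), Nrbp2 (0.958) and Mmd2 (0.949) to Aqp4. These coefficients describe 8 arrays that share pairs and prefixes and carry no test.

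Other astrocyte genes were read from lists by role. At 24 h, 7 of 8 genes of water, ion and junction function were lower (median -0.51), as were all 10 genes of glutamate and amino acid handling (-0.42), 9 of them in both pairs. Examples are the bicarbonate transporter Slc4a4 (-0.66 ± 0.54), the sodium pump subunit Atp1b2 (-0.55 ± 0.40), the glycine transporter Slc6a9 (-0.56 ± 0.79) and the glutamate receptor Grm3 (-0.57 ± 0.36). All 12 glial transcription factors measured were lower too (median -0.26), among them Id3 (-1.12 ± 0.95), Id4 (-0.88 ± 0.67) and Pax6 (-0.43 ± 0.24). Of 18 further astrocyte markers 15 were lower (median -0.39), with S100b at -1.42 ± 0.38, Cbs, an enzyme of sulphur amino acids, at -1.40 ± 0.34 and the receptor Ntsr2 at -0.87 ± 0.27. F3, tissue factor, went the other way (0.95 ± 0.71; 0.76 and 1.14 in the pairs). The 19 reactive astrocyte genes were mixed at 24 h, 11 higher and 8 lower (median 0.30). Gbp2 (1.55 ± 0.69), Cd44 (1.33 ± 0.76) and Timp1 (1.04 ± 0.41) were among the higher. Serpina3n (-0.66 ± 0.33) and Lcn2 (-0.17 ± 0.29) were among the lower. No gene of any list passed at 24 h in limma, with or without the block.

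Other genes of folate one-carbon metabolism mostly went the other way at 24 h, with 9 of 10 higher and a median of 0.42. They include Mthfd1l (0.85 ± 0.59), Shmt1 (1.02 ± 0.55; 1.47 and 0.57 in the pairs), Mthfd2 (0.51 ± 0.20) and Tyms, which makes thymidylate for DNA synthesis (0.58 ± 0.21). The 1 folate gene that was lower was Aldh1l2 (-0.10 ± 0.35, with -0.25 and 0.06 in the pairs). Of 12 genes of lipoprotein and lipid handling 9 were lower (median -0.18). Lcat, which esterifies cholesterol on the lipoproteins that APOE carries, was at -1.35 ± 0.40 and Lrp1, a receptor of APOE, at -0.50 ± 0.26.

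At 10 days the water, ion and junction genes were mixed, as the members were, with 5 higher and 3 lower (median 0.26). The glutamate and amino acid genes were also mixed, 5 higher and 5 lower (0.01). Of the 18 further astrocyte markers 12 were higher and 6 lower (0.27). With the pair as a block Slc4a4 (0.91 ± 0.17, SE with the block, adjusted p = 0.0381) and the chloride channel Clcn2 (0.84 ± 0.16, adjusted p = 0.0381) rose, 2 of 8 in their list. Among glutamate and amino acid genes Slc7a10, a serine and alanine transporter of astrocytes, rose (1.33 ± 0.20, adjusted p = 0.0258) and the cystine-glutamate exchanger Slc7a11 fell (-1.28 ± 0.20, adjusted p = 0.0275), while the GABA transporter Slc6a11 did not pass (1.06 ± 0.26, adjusted p = 0.0721). With the block 4 of the 18 further astrocyte markers rose and 1 fell. The FGF receptor Fgfr3 (1.29 ± 0.18), the phagocytic receptor Megf10 (1.53 ± 0.15) and F3 (2.03 ± 0.18), were among those that rose (adjusted p from 0.0148 to 0.022), and Ntsr2 fell (-1.36 ± 0.14, adjusted p = 0.0173).

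Of the other lists at 10 days, 8 of 10 folate genes were higher (median 0.36), as most were at 24 h. Of 12 glial factors 8 were higher and 4 lower (0.15), and of 12 lipid genes 8 were lower (-0.13). With the block Mthfd2 was the 1 folate gene that rose (0.80 ± 0.14, SE with the block, adjusted p = 0.0339). Id3 was the 1 glial factor that fell (-1.02 ± 0.17, adjusted p = 0.0293). None of the 12 lipid genes passed; Lcat was at -1.41 ± 0.31 (adjusted p = 0.0542). Of 19 reactive astrocyte genes 15 were higher, each in both pairs, and 4 were lower (median 1.01). With the block 6 of the 19 rose and 1 fell. Serpina3n, Lcn2, Cd44 and Timp1 rose by 4.22, 3.44, 2.38 and 2.24 (adjusted p from 0.00595 to 0.0173). Without the block no gene of these lists passed at 10 days. With the block and either 24 h pair left out, Slc4a4, Clcn2, Mthfd2 and Id3 no longer passed (adjusted p from 0.0541 to 0.0717). Without the AA1 pair the same 4 did not pass, nor did Fgfr3 (0.0518), Slc7a10 (0.0509) and Slc7a11 (0.0722). F3, Megf10, Ntsr2, Serpina3n, Lcn2, Cd44, Timp1 and Emp1, a membrane protein, passed in each of these fits (a check chosen after seeing the data); without a 10-day pair the call compares 1 control with 1 FGF9 array, with the spread taken from the 24 h arrays alone. Without pair 1 at 10 days 12 reactive genes and 4 glial factors passed.

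Markers of other cells were read on the same arrays. At 24 h all 11 myelin and oligodendrocyte markers were lower (median -0.54) and all 12 neuron markers (-0.19). At 10 days the myelin and oligodendrocyte markers were split, 6 higher and 5 lower (median 0.13), and the change of their FGF9 effect between the times was positive for 9 of the 11 (median 0.59), as it was for 7 of the 8 members. Of them Ugt8, an enzyme of myelin lipids, rose with the block (0.68 ± 0.14, adjusted p = 0.0469, a call lost when any 1 pair was left out). Of 5 oligodendrocyte precursor markers 4 were higher in both pairs at 10 days (median 0.72), and Cspg4 (NG2), which pericytes also carry, rose with the block (1.70 ± 0.14, adjusted p = 0.0143). At 10 days all 12 neuron markers were lower, with a median of -0.93, and 9 fell with the block (5 to 7 with 1 pair left out); their mean level was 10.82 and 11.57 in controls and 9.97 and 10.65 with FGF9. Of 12 microglia and macrophage markers, which bear on Apoe, 9 were lower at 24 h and 8 at 10 days (medians -0.08 and -0.15). Only 3 of the 12 were lower in both pairs at 24 h and 2 at 10 days. From control to FGF9 their mean level went from 8.91 to 8.50 in pair 1 at 24 h and from 7.88 to 8.10 in pair 2. At 10 days it went from 8.60 to 8.03 in pair 1 and from 7.76 to 8.13 in the AA1 pair. Fibroblast and pericyte markers averaged 8.93 to 9.64 on the CL1 and CL2 arrays and 6.90 and 7.15 on the AA1 arrays. At 10 days these 8 markers were split, 4 higher in both pairs and 3 lower in both (median 0.02). Only the pericyte gene Rgs5 among them rose with the block (2.09 ± 0.15, adjusted p = 0.0107). Of 4 Schwann cell markers 2 were higher and 2 lower at 10 days (median 0.16), and Pmp22 rose in the same fit (1.52 ± 0.30, adjusted p = 0.0426). All 4 ependymal markers were lower at 10 days (-0.64), and Ccdc39 fell in that fit (-1.25 ± 0.16, adjusted p = 0.0201). The change of the FGF9 effect between the times was positive for 4 of 5 precursor markers (median 0.99) and 6 of 8 fibroblast and pericyte markers (0.34). It was negative for 11 of 12 neuron markers (-0.64) and 7 of 12 microglia and macrophage markers (-0.13). Ependymal (4 of 4, -0.27) and endothelial markers (5 of 6, -0.12) were also mostly negative. The part of other cells in the members' differences was not tested. Of 10 housekeeping genes 5 were higher and 5 lower with FGF9 at each time (medians 0.03 and 0.01). Hprt1, 1 of the 10, fell with the block at 10 days (-0.72 ± 0.15, adjusted p = 0.0495).

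**Figure D4:**
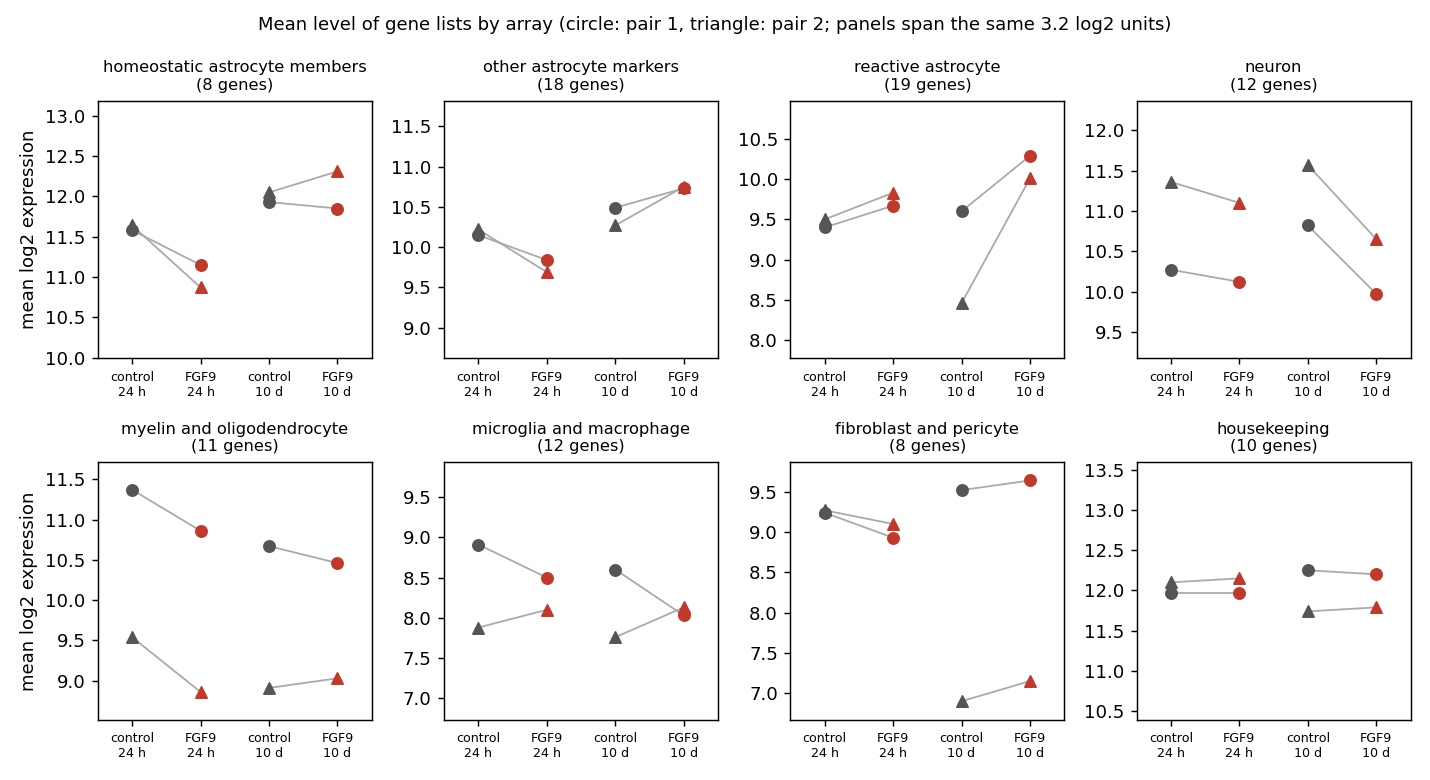
The mean log2 level of the members and of 7 marker lists on each array, with controls in grey, FGF9 in red and a line joining the arrays of a pair; levels are to be compared within a panel only. The members' mean is lower with FGF9 in both pairs at 24 h (11.58 and 11.64 to 11.15 and 10.87); at 10 days it is slightly lower in pair 1 (11.93 to 11.85) and higher in the AA1 pair (12.05 to 12.31), while the neuron markers are lower in both.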

How the data were processed

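Total RNA of the cultures was labelled with biotin and hybridised to Affymetrix Rat Gene 1.0 ST arrays. The authors deposited 1 log2 value per feature and array; the scale is read from the values, and centring is not stated. Per the submitters' processing notes they used Partek 6.5 and GCRMA; the order of steps is not given in the sources used here. Of 29214 features, 15310 had 1 symbol in the platform annotation, 323 several and 13581 none; the feature with the highest mean was taken for each of 14506 genes. No detection calls were used, and the number of arrays limits the precision.

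Groups and replicate numbers came from the titles. The fits used limma 3.58.1 in R 4.3.3 (1 mean per group, 8 arrays), with Benjamini-Hochberg adjustment over all genes at 0.05, and again with the pair (array name prefix) as a fixed block. Same-numbered control and FGF9 arrays deviated together from their group means (correlation over genes 0.757 at 24 h and 0.819 at 10 days), and they share a prefix in the labels. The fits were tested on simulated data. Values of all 8 measured members are given; other genes were named as up to 4 per list and FGF9 comparison with the smallest unadjusted p in the block fit, and the 3 genes most correlated with each of 4 members. Marker genes Snap25, Mbp, Col3a1, Ugt8, Cspg4, Rgs5, Pmp22, Ccdc39 and Hprt1 were named after their values were seen. Members, lists and tests were chosen with earlier results of these data known. Alternatives are described in the closing section.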

Additional observations from a re-analysis of the deposited data

Results flagged for a closer look

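Slc1a2, Slc1a3, Mlc1 and Acsbg1 were lower with FGF9 in both pairs at 24 h and higher in both pairs at 10 days. The change of the FGF9 effect from 24 h to 10 days was 1.29 log2 units for Slc1a2, 0.89 for Slc1a3, 0.61 for Mlc1 and 0.87 for Acsbg1. The interaction test in limma passed for none of the 4 (adjusted p = 1 for each; 0.237, 0.249, 0.304 and 0.279 with the pair as a block), so they are listed for their opposite signs alone. The sign rests on small values in places: Slc1a3 differed by -0.01 in pair 1 at 24 h and Acsbg1 by 0.05 in pair 1 at 10 days. Groups of 2 arrays are too small for a check of single outlying arrays.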

How the results depend on the processing

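Without a block, 0 members and 0 genes passed in any of the 4 comparisons as deposited. This count of 0 members held under all 21 alternatives, where they could be fitted; the smallest adjusted p of a member was 0.0508 at 24 h (Aqp4, replicate block without pair 1 at 10 days), 0.057 at 10 days (Slc1a3), 0.0706 for the change of the effect (Aldh1l1) and 0.184 between control times (Aldh1l1).

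Counts over all genes moved with the block. With the replicate block 933 genes passed at 10 days, 7 for the change of the effect and 1 between control times; with it as a random block 151 and 4 passed. With the block and quantile normalization 989, 7 and 1 passed, and with the block and subtracted medians 962, 7 and 1 (both chosen after seeing the data). Leaving 1 pair out of the block fit gave 0 to 237 genes at 24 h, 469, 469, 1506 and 569 at 10 days, 1, 0, 322 and 9 for the change of the effect (each in the order pair 1 and 2 at 24 h, pair 1 and 2 at 10 days) and 2 between control times. In that fit the control times could not be compared without pair 2 at 24 h or pair 1 at 10 days. Without a block, no gene counts moved when 1 array was left out, under quantile normalization, subtracted medians, the filter on low values, averaged features or trended robust moderation.

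Of 656 member values under alternatives 635 kept their direction and 21 turned, none of them past the threshold. Between control times Slc1a3 turned to -0.32 with the replicate block, -0.14 with the random block, -0.31 with the block and quantile normalization and -0.32 with subtracted medians, and Slc1a2 to -0.03 with the block without pair 1 at 24 h (Slc1a3 -0.43 there, -0.32 without pair 2 at 10 days). Without each array in turn that comparison ran from -0.19 to 0.6 for Slc1a3, -0.11 to 0.38 for Mlc1 and -0.05 to 0.44 for Apoe. The 24 h effect ran from -0.47 to 0.01 for Slc1a3 and -1.91 to -0.68 for Aqp4, and the 10-day effect from -0.01 to 0.49 for Mlc1 and -0.11 to 0.72 for Acsbg1, 0 to 0.96 for Slc1a2 and 0.27 to 1.06 for Slc1a3. The change of the effect ran from -0.31 to 0.18 for Apoe and -0.02 to 0.6 for Ndrg2. These ranges come from fits without the block, where an array without its partner brings level differences between pairs into the effect. With the block and 1 pair left out, Apoe turned to 0.01 and 0.09 for the change of the effect, and Aldh1l1 to -0.03 at 10 days. The cause was not tested. The members' median at 24 h stayed between -0.61 and -0.43 without each array in turn, and at 10 days between -0.05 and 0.34.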
